A study of Capra hircus with 12 samples.

Results

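The expression of 9 chondrocyte identity genes was examined in RNA-seq libraries of goat temporomandibular joint (TMJ) cells. The genes were chosen by name as SOX5, SOX6, SOX9, ACAN, MATN3, COMP, CNMD, RUNX2 and RUNX3, and all 9 were found among the 28910 rows of the count tables, 8 under these names and CNMD under its older symbol LECT1. Collagens are not in the set. The cells came from condylar fibrocartilage of female goats aged 6 to 9 months, obtained from abattoirs. They were grown as a monolayer and used at passages 3 to 5, either as superficial layer cells (SLC) or as cells of the cartilage layer beneath it (MLC). Every culture received IL-1β, an inflammatory cytokine, at 10 ng for 1 h. The IL-1β + LOXL2 cultures had in addition been transduced overnight with an adenovirus carrying LOXL2, a lysyl oxidase that crosslinks collagen and elastin. There were 3 libraries in each of the 4 groups (SLC IL-1β, SLC IL-1β + LOXL2, MLC IL-1β and MLC IL-1β + LOXL2). Whether the IL-1β cultures used for RNA-seq received an empty adenovirus is not given in the sources used here. None of the 12 libraries came from cells given vehicle, so the effect of IL-1β itself cannot be read from them. The labels do not say whether replicates came from separate goats, so the p-values measure the spread between these libraries, which may be technical.

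SOX9 is the transcription factor that sets and keeps the chondrocyte fate. SOX5 and SOX6, which lack a transactivation domain of their own, bind DNA beside it and raise the output of cartilage matrix genes. ACAN encodes aggrecan, the large proteoglycan that holds water in cartilage. MATN3 and COMP encode matrix proteins that link collagen fibrils with other matrix components, and CNMD encodes chondromodulin, a secreted inhibitor of blood vessel growth. RUNX2 and RUNX3 drive the later steps of chondrocyte hypertrophy, and RUNX2 is also required for bone formation. Chondrocytes cultured as a monolayer are known to lose their matrix gene expression and take on fibroblast features.

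Library totals ranged from 14158607 to 28931652 counts. The level of a gene is given as CPM, the count relative to the TMM-scaled library size, on 1 scale for all 12 libraries, and only 1 gene at a time is compared between groups, because CPM does not correct for gene length. In bulk RNA, fewer cells of a type and less RNA per cell cannot be told apart. Replicate 1 of IL-1β + LOXL2 stood apart in SLC. The chi-square per degree of freedom of its counts against the other SLC IL-1β + LOXL2 replicates was 159 and 58.1, whereas that of the other pair was 29.2. In MLC, the values were 15.2 and 33.9 for pairs with replicate 1 of IL-1β + LOXL2 and 5.81 for the other pair. Pairs of IL-1β libraries ranged from 2.23 to 9.37. The calls on IL-1β + LOXL2 libraries were therefore also made without replicate 1. For LOXL2, 61.7% of 14334 genes in SLC and 48.1% of 13838 genes in MLC passed in those fits. A LOXL2 call made without replicate 1 is thus shared with many genes and is not particular to an identity gene. In its trend on gene span, given below, replicate 1 was the IL-1β + LOXL2 library nearest to the IL-1β libraries.

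Cell type markers were read before the 9 genes. Summed CPM of 7 fibroblast genes ranged from 63751 to 77163, and COL1A1 alone had group means between 32079 and 36560 CPM. Of 12 chondrocyte markers, 11 were found and MATN1 was at 0 counts in every library. Their summed CPM ranged from 1243 to 1368 in SLC IL-1β and from 1642 to 1797 in MLC IL-1β. With IL-1β + LOXL2 it ranged from 657 to 1247 in SLC and from 1316 to 1736 in MLC. COL11A1 made up most of that sum. Its group means with IL-1β were 1233 CPM in SLC and 1195 CPM in MLC, and with IL-1β + LOXL2 859 and 1022 CPM. COL2A1, the main collagen of hyaline cartilage, had 0 counts in each SLC IL-1β library and 1 count over the SLC IL-1β + LOXL2 libraries. In MLC it had 295, 159 and 282 counts with IL-1β and 350, 176 and 332 counts with IL-1β + LOXL2. Against a floor of 3 counts over the SLC IL-1β group, COL2A1 was at least 343-fold higher in MLC. Summed CPM did not exceed 5.23 for 7 endothelial genes, 4.19 for 5 osteoblast genes, of which DMP1 was at 0 in every library, and 2.82 for 5 hypertrophic chondrocyte genes. Summed CPM of 8 macrophage and leukocyte genes ranged from 49.8 to 89.4 in SLC and from 78.5 to 135 in MLC. CD14 made up most of that sum, with group means from 65.5 to 107 CPM, while C1QA and C1QB were at 0 in every library. Summed smooth muscle and pericyte genes, mostly ACTA2, ranged from 1577 to 2174 CPM in SLC and from 1139 to 1773 CPM in MLC. The part of these cell type markers in the layer differences was not tested.

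The goat LOXL2 gene was at 615, 618 and 633 CPM in SLC IL-1β and at 458, 546 and 561 CPM in SLC IL-1β + LOXL2. In MLC it was at 767, 876 and 817 CPM with IL-1β and at 815, 796 and 742 CPM with IL-1β + LOXL2. Between treatments, this gene differed by -0.27 on the log2 scale in SLC (edgeR adjusted p = 0.106) and by -0.07 in MLC (edgeR adjusted p = 0.595). The transduced LOXL2 was thus not seen as a higher count of this gene, and whether reads from the viral construct were counted on it is not given in the sources used here. Every effect called LOXL2 in the text compares libraries by these labels, IL-1β + LOXL2 with IL-1β.

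The plainest difference among the 9 genes was between layers. With IL-1β, MLC held more SOX9, SOX5, SOX6, ACAN and COMP RNA than SLC, and less RUNX2 RNA. With IL-1β + LOXL2, the levels of SOX9, SOX5, ACAN and COMP were higher in MLC. RUNX3 had few counts, mostly in MLC, and CNMD and MATN3 had few in every group. The LOXL2 effect was smaller. In MLC, SOX5 and SOX6 fell and COMP rose, and in SLC none of the 7 genes tested passed the threshold. The plot of levels in each library shows these groups.

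**Figure D1:**
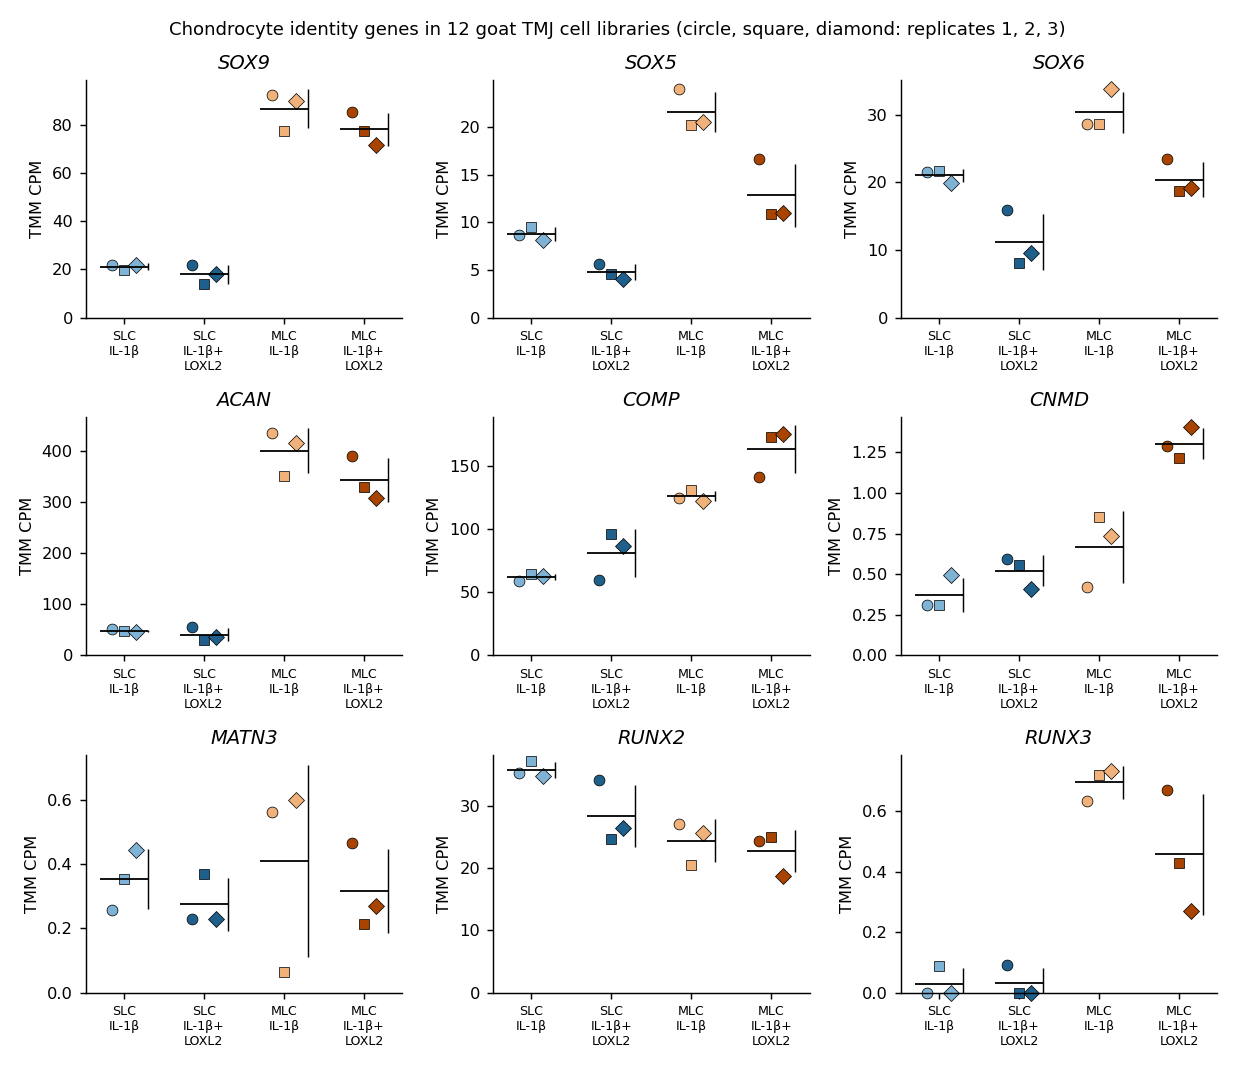
CPM (TMM scaled, linear axis from 0) of each of the 9 genes in the 12 libraries. Points are libraries, lines are means of 3 libraries and bars are 1 SD. SOX9 and ACAN separate the layers, SOX5 separates all 4 groups, and CNMD, MATN3 and RUNX3 lie near or below 1 CPM.

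SOX9 (chromosome 19, 58090620 to 58096193, goat build ARS1.2, 5.57 kb) was at 22.0, 19.7 and 22.1 CPM in SLC IL-1β and at 92.8, 77.8 and 90.2 CPM in MLC IL-1β. With IL-1β + LOXL2, it was at 21.8, 13.9 and 18.3 CPM in SLC and at 85.6, 77.8 and 71.8 CPM in MLC. Every MLC library lay above every SLC library, and the treatments overlapped within each layer. SOX9 was 4.10-fold higher in MLC than in SLC with IL-1β (log2 fold change 2.04, standard error 0.08, edgeR adjusted p = 1.59e-10) and 4.39-fold higher with IL-1β + LOXL2 (log2 fold change 2.13, standard error 0.19, edgeR adjusted p = 5.70e-04). With LOXL2, its log2 fold change was -0.25 in SLC (95% interval -0.68 to 0.17, edgeR adjusted p = 0.299) and -0.15 in MLC (95% interval -0.38 to 0.08, edgeR adjusted p = 0.299). The SLC value was -0.43 and passed without replicate 1 of SLC IL-1β + LOXL2 (edgeR adjusted p = 0.0180).

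SOX5 lies in a gene of 1143.9 kb (chromosome 5, 84043281 to 85187178), the longest of the 9. Its level was 8.68, 9.49 and 8.10 CPM in SLC IL-1β and 5.66, 4.56 and 4.06 CPM in SLC IL-1β + LOXL2. In MLC it was 23.9, 20.2 and 20.6 CPM with IL-1β and 16.7, 10.9 and 11.01 CPM with IL-1β + LOXL2. The 4 groups did not overlap, and their means ran from MLC IL-1β (21.6 ± 2.08 CPM, SD, n = 3) through MLC IL-1β + LOXL2 (12.8 ± 3.30) and SLC IL-1β (8.76 ± 0.702) to SLC IL-1β + LOXL2 (4.76 ± 0.817). A two-sided exact permutation test of 3 libraries against 3 cannot give a p below 0.1, which it gives for every such separation. Between layers, SOX5 was 2.46-fold higher in MLC with IL-1β (log2 fold change 1.30, standard error 0.11, edgeR adjusted p = 2.28e-07) and 2.73-fold higher with IL-1β + LOXL2 (log2 fold change 1.45, standard error 0.24, edgeR adjusted p = 0.00583). With LOXL2, SOX5 fell in MLC (log2 fold change -0.74, standard error 0.17, edgeR adjusted p = 0.0204). In SLC its log2 fold change was -0.89 (95% interval -1.30 to -0.49) and did not pass after adjustment over all genes (edgeR adjusted p = 0.0706). It was -1.04 without replicate 1 of SLC IL-1β + LOXL2 (edgeR adjusted p = 2.27e-04).

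SOX6 (chromosome 15, 45807865 to 46523256, 715 kb) was at 21.5, 21.7 and 20.0 CPM in SLC IL-1β and at 15.9, 8.002 and 9.62 CPM in SLC IL-1β + LOXL2. In MLC it was at 28.7, 28.7 and 33.9 CPM with IL-1β and at 23.5, 18.7 and 19.1 CPM with IL-1β + LOXL2. MLC IL-1β was highest and SLC IL-1β + LOXL2 lowest, while SLC IL-1β and MLC IL-1β + LOXL2 overlapped. The layer difference of SOX6 was smaller than that of its partners, 1.45-fold with IL-1β (log2 fold change 0.53, standard error 0.09, edgeR adjusted p = 1.67e-04). With IL-1β + LOXL2 it was 0.88 on the log2 scale and did not pass (standard error 0.27, edgeR adjusted p = 0.0678). With the replicate number as a block, the log2 fold change was 0.93 and passed (edgeR adjusted p = 0.00309), and without replicate 1 of SLC IL-1β + LOXL2 it was 1.24 (edgeR adjusted p = 7.06e-04). Without any other of the 6 libraries it did not pass (edgeR adjusted p from 0.103 to 0.215). Among these fits, it was 0.77 without replicate 1 of MLC IL-1β + LOXL2 (edgeR adjusted p = 0.192). With LOXL2, SOX6 fell in MLC (log2 fold change -0.57, standard error 0.12, edgeR adjusted p = 0.0199), and in SLC its log2 fold change was -0.93 (95% interval -1.52 to -0.34, edgeR adjusted p = 0.0706). That value was -1.29 without replicate 1 of SLC IL-1β + LOXL2 (edgeR adjusted p = 3.36e-05).

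ACAN (chromosome 21, 19677141 to 19744901, 67.8 kb) had the widest range of group means among the identity genes tested in both layers. It was at 50.1, 47.3 and 45.2 CPM in SLC IL-1β and at 435, 351 and 416 CPM in MLC IL-1β. With IL-1β + LOXL2, it was at 54.3, 29.4 and 35.2 CPM in SLC and at 390, 328 and 308 CPM in MLC. No MLC library came near an SLC library, whereas the treatments overlapped within each layer. The difference between layers was 8.45-fold with IL-1β (log2 fold change 3.08, standard error 0.08, edgeR adjusted p = 2.77e-12) and 8.68-fold with IL-1β + LOXL2 (log2 fold change 3.12, standard error 0.26, edgeR adjusted p = 4.39e-04). The 95% interval of the LOXL2 effect on ACAN ran from -0.80 to 0.25 in SLC and from -0.47 to 0.01 in MLC on the log2 scale. Without replicate 1 of IL-1β + LOXL2 in the layer concerned, ACAN was lower with edgeR adjusted p = 6.44e-04 in SLC (log2 fold change -0.58) and 0.00487 in MLC (log2 fold change -0.33).

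COMP (chromosome 7, 104321915 to 104329751, 7.84 kb), a thrombospondin family member also called TSP5, was at 59.2, 64.1 and 62.9 CPM in SLC IL-1β and at 59.3, 96.3 and 86.8 CPM in SLC IL-1β + LOXL2. In MLC it was at 125, 131 and 123 CPM with IL-1β and at 141, 173 and 175 CPM with IL-1β + LOXL2. All MLC IL-1β + LOXL2 libraries lay above all MLC IL-1β libraries, while the SLC groups overlapped through replicate 1 of IL-1β + LOXL2. COMP was 2.04-fold higher in MLC than in SLC with IL-1β (log2 fold change 1.03, standard error 0.06, edgeR adjusted p = 7.77e-09) and 2.05-fold higher with IL-1β + LOXL2 (log2 fold change 1.03, standard error 0.19, edgeR adjusted p = 0.00970). The second of these calls was lost without replicate 2 or replicate 3 of MLC IL-1β + LOXL2 (edgeR adjusted p = 0.0528 and 0.0525). With LOXL2, COMP rose in MLC (1.29-fold, log2 fold change 0.37, standard error 0.10, edgeR adjusted p = 0.0283). That call held without replicate 1 of MLC IL-1β + LOXL2 (edgeR adjusted p = 7.31e-05) and was lost without any other of the 6 MLC libraries (edgeR adjusted p from 0.0615 to 0.134). In SLC its log2 fold change was 0.36 (95% interval -0.04 to 0.77, edgeR adjusted p = 0.144), and without replicate 1 of SLC IL-1β + LOXL2 it was 0.54 (edgeR adjusted p = 3.49e-04).

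CNMD (chromosome 12, 75442396 to 75474434, 32.0 kb) was scarce, with 6, 7 and 10 counts in SLC IL-1β and 13, 15 and 9 counts in SLC IL-1β + LOXL2. In MLC it had 6, 13 and 11 counts with IL-1β and 25, 17 and 26 counts with IL-1β + LOXL2. After scaling, the MLC IL-1β + LOXL2 libraries, at 1.29, 1.22 and 1.41 CPM, lay above the libraries of the other groups. With IL-1β + LOXL2, CNMD passed the low-count filter through its MLC libraries and was 2.52-fold higher in MLC than in SLC (log2 fold change 1.33, standard error 0.29, edgeR adjusted p = 0.0206). That call was lost without any 1 of 4 libraries, replicate 3 of SLC IL-1β + LOXL2 (edgeR adjusted p = 0.0995) and replicates 1, 2 and 3 of MLC IL-1β + LOXL2 (edgeR adjusted p = 0.0741, 0.0748 and 0.0923). With IL-1β alone it did not pass the low-count filter, and the ratio of MLC to SLC was 1.82 (95% counting interval 1.02 to 3.28). Its log2 fold change with LOXL2 was 0.95 in MLC (95% interval 0.21 to 1.70, edgeR adjusted p = 0.0635) and 0.47 in SLC (95% interval -0.41 to 1.35, edgeR adjusted p = 0.348). For the MLC test, CNMD passed the low-count filter through its IL-1β + LOXL2 libraries, which favours a rise, so the MLC value is a description.

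MATN3 (chromosome 11, 78543696 to 78561487, 17.8 kb) did not pass the low-count filter in any comparison. It had 5, 8 and 9 counts in SLC IL-1β, 5, 10 and 5 in SLC IL-1β + LOXL2, 8, 1 and 9 in MLC IL-1β and 9, 3 and 5 in MLC IL-1β + LOXL2. All 4 groups overlapped. The ratio of MLC to SLC was 1.14 with IL-1β (95% counting interval 0.578 to 2.23) and 1.16 with IL-1β + LOXL2 (0.572 to 2.34), so a difference of about the size seen for COMP was not excluded at this depth. Counting intervals cover counting error only and take reads as independent molecules.

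RUNX2 (chromosome 23, 29926106 to 30269961, 344 kb) was at 35.3, 37.3 and 34.9 CPM in SLC IL-1β and at 34.1, 24.7 and 26.5 CPM in SLC IL-1β + LOXL2. In MLC it was at 27.2, 20.5 and 25.6 CPM with IL-1β and at 24.5, 24.96 and 18.8 CPM with IL-1β + LOXL2. SLC IL-1β lay above each of the other groups, which overlapped in order of their means. RUNX2 was lower in MLC than in SLC with IL-1β (log2 fold change -0.55, standard error 0.09, edgeR adjusted p = 2.36e-04), opposite in sign to SOX9 and ACAN. With IL-1β + LOXL2 the layer difference was -0.31 (95% interval -0.74 to 0.12, edgeR adjusted p = 0.309). With LOXL2, the log2 fold change of RUNX2 was -0.35 in SLC (95% interval -0.69 to 0.00, edgeR adjusted p = 0.112) and -0.11 in MLC (95% interval -0.42 to 0.20, edgeR adjusted p = 0.598). The SLC value was -0.51 without replicate 1 of SLC IL-1β + LOXL2 (edgeR adjusted p = 8.51e-04).

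RUNX3 (chromosome 2, 7884247 to 7949392, 65.1 kb) was close to absent from SLC, with 0, 2 and 0 counts with IL-1β and 2, 0 and 0 counts with IL-1β + LOXL2. In MLC it had 9, 11 and 11 counts with IL-1β and 13, 6 and 5 counts with IL-1β + LOXL2. Every MLC library held more RUNX3 counts than every SLC library. The ratio of MLC to SLC, after scaling, was 21.6 with IL-1β (95% counting interval 5.51 to 187) and 16.4 with IL-1β + LOXL2 (4.07 to 143). RUNX3 passed the low-count filter with IL-1β only through its MLC libraries, which fixes the direction of its test, so its level is given as a description. It did not pass that filter between layers with IL-1β + LOXL2. In MLC, its log2 fold change with LOXL2 was -0.59 (95% interval -1.53 to 0.35, edgeR adjusted p = 0.332).

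Counted over the genes tested, 7 of 7 passed between layers with IL-1β, 6 of them higher in MLC and 1 lower, against 46.9% of the 13965 genes tested in that comparison (24.2% higher and 22.7% lower). With IL-1β + LOXL2, 5 of 7 passed, all 5 higher, against 16.1% of 14085 genes (9.27% higher and 6.83% lower). RUNX3 in the former and CNMD in the latter were tested because of their level in MLC, so these counts describe the genes that could be tested and not all 9. Among genes with at least 10 counts in every library, which leaves out both, 6 of 6 passed with IL-1β, 5 higher and 1 lower, against 46.7% of 12922 genes (24% higher and 22.7% lower). With IL-1β + LOXL2, 4 of 6 then passed, all 4 higher, against 14% of 12929 genes (8.34% higher and 5.68% lower). With the replicate block, 6 of the 7 first tested passed with IL-1β + LOXL2, against 27.6% of genes, and with the block and the span trend described below removed RUNX2 passed as well (log2 fold change -0.33, edgeR adjusted p = 0.0422). The libraries of the layers did not overlap for any of the 7 with IL-1β, 6 of them higher in MLC and 1 lower, as for 55.8% of all genes tested (28.1% higher and 27.8% lower). With IL-1β + LOXL2, 6 of the 7 were higher in every MLC library, where 35% of all genes tested did not overlap, 18% higher and 17% lower. The median log2 fold change of the 6 genes with at least 10 counts in every library was 1.16 with IL-1β and 1.24 with IL-1β + LOXL2, beside medians of -0.01 and -0.03 over all genes so counted. Each layer was deposited as a table of its own, so the layer and any difference in how the tables were made cannot be told apart.

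The LOXL2 effect was tested in 7 of the 9 genes in SLC and in 8 in MLC. In SLC none passed with edgeR, as none of 14103 genes did (0%), although 3 of the 7 and 6108 of all genes had an unadjusted p under 0.05. DESeq2 called 2 of the 7, SOX5 (log2 fold change -0.90, DESeq2 adjusted p = 0.00179) and SOX6 (log2 fold change -0.93, DESeq2 adjusted p = 0.00926). It called 4234 of all 14103 genes, a similar share. SOX5, SOX6 and RUNX2 were lower in every SLC IL-1β + LOXL2 library than in every SLC IL-1β library, as were 23.5% of all genes tested, while 49% of all genes did not overlap in either direction. In MLC, 3 of 8 passed, against 21.6% of 13664 genes, 2 of them lower (11.8% of all genes) and 1 higher (9.81%). The libraries of the treatments did not overlap for 4 of the 8, SOX5 and SOX6 lower and COMP and CNMD higher, beside 41.5% of all genes tested (21% higher and 20.5% lower). CNMD was tested here because of its level in the MLC IL-1β + LOXL2 libraries, which favours its direction. The MLC calls rested on most libraries. None of the 8 passed without replicate 1 or replicate 3 of MLC IL-1β or without replicate 2 of MLC IL-1β + LOXL2. In each of these fits 0 of all genes tested passed. Without replicate 3 of MLC IL-1β + LOXL2, 1 of the 8 passed, beside 474 of 13834 genes. In the fit on all 12 libraries, SOX5 and SOX6 passed in SLC (edgeR adjusted p = 0.0152 for each), among 5965 of 14534 genes. None passed in MLC in that fit (edgeR adjusted p = 0.174 for SOX5 and SOX6 and 0.177 for COMP), where 0 of 14534 genes did.

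**Figure D2:**
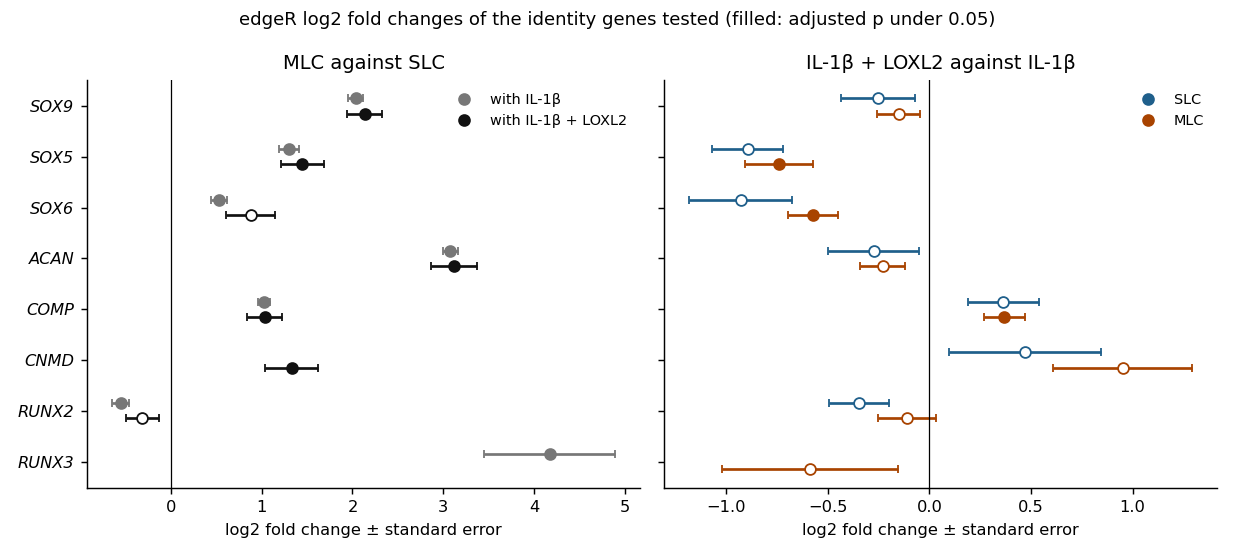
Log2 fold changes of the tested genes with their standard errors, for LOXL2 in each layer and for MLC against SLC at each treatment, where filled points have an edgeR adjusted p under 0.05. The fitted value of RUNX3 between layers depends on 2 counts in SLC, and RUNX3 and CNMD entered the layer tests through their MLC libraries. CNMD entered the LOXL2 test in MLC through its IL-1β + LOXL2 libraries. ACAN, SOX9, SOX5 and COMP lie to the right in both layer comparisons, and SOX5 and SOX6 lie to the left in both LOXL2 comparisons.

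The effect of LOXL2 was compared between layers as an interaction in all 12 libraries. None of the 8 genes tested passed with edgeR or DESeq2, none had an unadjusted p under 0.05, and none of 14534 genes passed with edgeR (0%, with 328 at an unadjusted p under 0.05). The 95% interval of the difference between the LOXL2 effects, MLC minus SLC on the log2 scale, was -0.41 to 0.69 for SOX5, -0.28 to 0.97 for SOX6, -0.35 to 0.54 for SOX9, -0.53 to 0.60 for ACAN and -0.47 to 0.45 for COMP. The layers were thus neither shown to differ in their response nor shown to respond alike.

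Genomic span, the distance from the start to the end of a gene with its introns, moved with the LOXL2 effect. Spearman's rho of span with the LOXL2 effect, taken over genes and not over replicates, was -0.49 in SLC and -0.49 in MLC. SOX5, SOX6 and RUNX2 span over 300 kb. Of the 422 genes tested in SLC that span 300 kb or more, 86.7% had a log2 fold change below 0, with a median of -0.48, and of the 405 such genes in MLC 81.7% did, with a median of -0.32. Genes under 100 kb had medians of 0.08 in SLC and 0.05 in MLC. SOX5 at -0.89 and SOX6 at -0.93 in SLC lay below the middle 50% of genes of similar span, as did SOX5 at -0.74 and SOX6 at -0.57 in MLC, whereas RUNX2 lay within it in SLC and at its upper edge in MLC. Among the shorter genes, SOX9 lay below the middle 50% and CNMD above it in each layer, and RUNX3, tested with LOXL2 in MLC only, lay below it there.

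**Figure D3:**
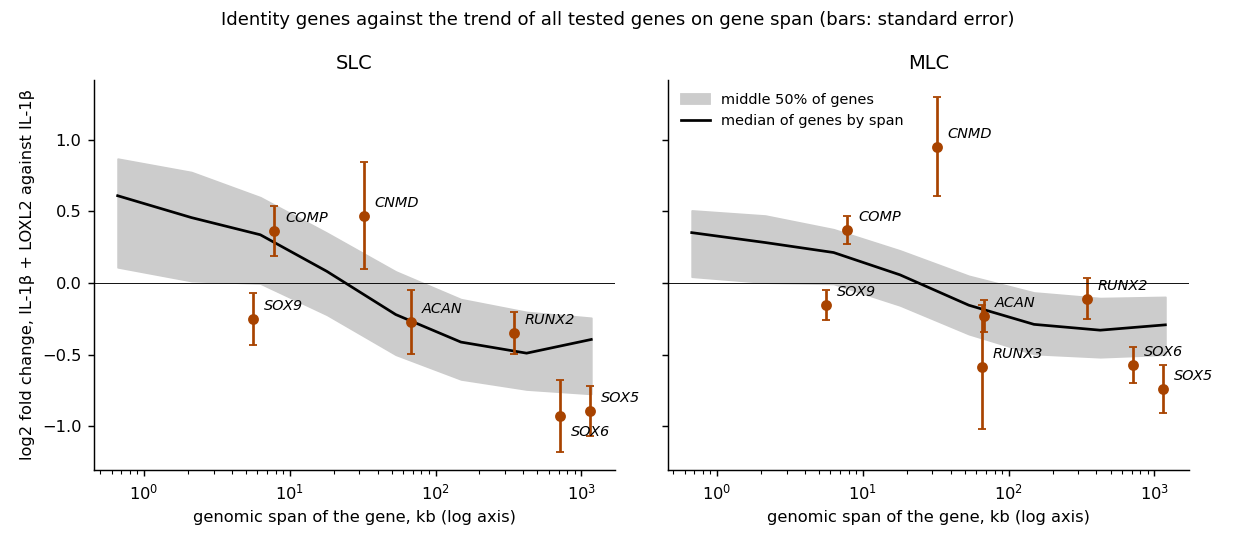
Log2 fold change with LOXL2 in SLC and MLC against genomic span in kb on a log axis. The line and band are the median and the middle 50% of all tested genes in bins of span, and the points are the tested identity genes. SOX5, SOX6 and SOX9 lie below the band in both layers, RUNX3 lies below it in MLC, and CNMD lies above it in both layers.

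The steepness of this trend differed among libraries. Relative to the mean of the IL-1β libraries of its layer, log2 CPM changed with each 10-fold increase in span by -0.12, -0.55 and -0.42 in the SLC IL-1β + LOXL2 libraries and by -0.10, -0.27 and -0.34 in the MLC IL-1β + LOXL2 libraries, in order of replicate. The IL-1β libraries lay between -0.05 and 0.03. Replicate 1 of IL-1β + LOXL2 was in each layer the library nearest to the IL-1β libraries. It also had the highest SOX5, SOX6, SOX9 and ACAN levels and the lowest COMP level of its group, and SOX9 and COMP are short genes. With the trend of each library on span removed, the log2 fold change of SOX5 in MLC was -0.42 and passed (edgeR adjusted p = 0.0442), while that of SOX6 was -0.26 (edgeR adjusted p = 0.0995) and that of COMP 0.22 (edgeR adjusted p = 0.0721). In SLC, SOX5 was then at -0.39 (edgeR adjusted p = 0.0915) and SOX6 at -0.49 (edgeR adjusted p = 0.0751). RUNX2 turned to 0.09 in SLC and 0.19 in MLC, and ACAN to 0.00 in SLC. SOX9 moved the other way, to -0.48 in SLC (edgeR adjusted p = 0.161) and -0.32 in MLC (edgeR adjusted p = 0.0753). The 7 layer calls with IL-1β and the 5 with IL-1β + LOXL2 held with the trend removed, and SOX6 was called besides in the latter (log2 fold change 0.90, edgeR adjusted p = 0.00513). The part of span in the LOXL2 effect on single genes cannot be told apart from that of the treatment in these libraries.

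Of 20 further genes of the SOX network (SOX relatives, coactivators and regulators of SOX9), 6 were higher and 3 lower in MLC with IL-1β among 17 tested, and 3 were higher and 2 lower with IL-1β + LOXL2 among 17 tested. The shares over all genes tested were 46.9% and 16.1%. SOX11, a transcription factor of progenitor cells, had the largest difference upwards, with 15.5 CPM in MLC and 1.44 CPM in SLC with IL-1β (log2 fold change 3.43, edgeR adjusted p = 6.60e-10). SOX13, a relative of SOX5 and SOX6, was also higher in MLC with IL-1β (log2 fold change 1.28, edgeR adjusted p = 1.46e-05), as was ARID5A, a cofactor of SOX9 (log2 fold change 1.01, edgeR adjusted p = 1.53e-04). PPARGC1A, a coactivator of mitochondrial genes that also binds SOX9, was lower, with 0.295 CPM in MLC and 4.46 CPM in SLC (log2 fold change -3.89, edgeR adjusted p = 5.64e-07). In both layer comparisons PPARGC1A passed the low-count filter only through its SLC libraries, which fixes the direction of its tests. SOX4 was lower as well (log2 fold change -0.67, edgeR adjusted p = 4.09e-04), and ZNF219, another SOX9 cofactor, by a small amount (log2 fold change -0.21, edgeR adjusted p = 0.0323). With IL-1β + LOXL2, SOX11 (log2 fold change 3.44), WWP2 (0.83), which hosts the cartilage microRNA miR-140, and SOX13 (0.83) were higher in MLC, and PPARGC1A (-4.10) and SOX4 (-0.54) were lower (edgeR adjusted p from 3.18e-04 to 0.0398).

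With LOXL2, 2 genes of the SOX network were higher and 5 lower among 16 tested in MLC, and none of 17 passed in SLC. Beside these stand 21.6% of all genes tested in MLC (9.81% higher and 11.8% lower) and 0% in SLC. The median of the network was -0.14 on the log2 scale in MLC and -0.17 in SLC, beside 0.01 over all genes in each layer. The general coactivators MED12 (log2 fold change -0.81, edgeR adjusted p = 0.0220) and EP300 (log2 fold change -0.67, edgeR adjusted p = 0.0190), and the SOX9 cofactor ARID5B (log2 fold change -0.61, edgeR adjusted p = 0.0206), fell in MLC. The homeobox gene BARX1 (log2 fold change 0.43, edgeR adjusted p = 0.0242) and ZNF219 (log2 fold change 0.33, edgeR adjusted p = 0.0462) rose. Without replicate 1 of IL-1β + LOXL2, 3 were higher and 7 lower in MLC, and 4 were higher and 6 lower in SLC, where 48.1% and 61.7% of all genes tested passed. The 5 genes named here passed without it too.

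Among 23 genes of the RUNX and hypertrophy network, 5 were higher and 6 lower in MLC with IL-1β among 18 tested, and 2 were higher and 4 lower with IL-1β + LOXL2 among 20 tested, beside 46.9% and 16.1% of all genes. SPP1, which encodes osteopontin, was at 98.4 CPM in MLC and 13.6 CPM in SLC with IL-1β (log2 fold change 2.86, edgeR adjusted p = 1.05e-12). TWIST1 (log2 fold change 0.49, edgeR adjusted p = 1.42e-05), an inhibitor of RUNX2, was higher too. DLX5, a homeobox gene of skeletal patterning, was at 0.911 CPM in MLC and 25.1 CPM in SLC (log2 fold change -4.75, edgeR adjusted p = 1.56e-10). With 8, 23 and 10 counts in MLC IL-1β, DLX5 passed the low-count filter only through its SLC libraries, which fixes the direction of that test. Its neighbour DLX6 had 2 counts over the MLC IL-1β libraries and 599 over the SLC IL-1β libraries, a scaled ratio of SLC to MLC of 214 (95% counting interval 59.1 to 1775). TWIST2 was lower in MLC as well (log2 fold change -1.56, edgeR adjusted p = 1.12e-07).

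The same network with IL-1β + LOXL2 showed PTH1R, the receptor of parathyroid hormone-related protein, at 1.11 CPM in MLC and 0.143 CPM in SLC (log2 fold change 2.94, edgeR adjusted p = 0.00376), and SPP1 higher in MLC (log2 fold change 2.73, edgeR adjusted p = 2.97e-04). PTH1R had 2, 3 and 5 counts in SLC and passed the low-count filter only through its MLC libraries, which fixes the direction of its test. DLX5 (log2 fold change -4.76, edgeR adjusted p = 1.75e-04) and TWIST2 (log2 fold change -1.74, edgeR adjusted p = 0.00155) were lower. The ratio of SLC to MLC for DLX6 was 226 (95% counting interval 77.0 to 1096). These layer comparisons share no library, but each shares its libraries with a LOXL2 comparison. With LOXL2, RUNX1, the third RUNX family member, was the network gene that fell in MLC (log2 fold change -0.84, edgeR adjusted p = 0.0190), from 68.3 to 38.2 CPM, and the other 16 tested did not pass. None of 18 passed in SLC, where RUNX1 was at -1.25 (edgeR adjusted p = 0.0706). Over all genes tested, 21.6% passed in MLC and 0% in SLC. Without replicate 1 of IL-1β + LOXL2, 2 were higher and 6 lower in MLC, beside 48.1% of all genes, and 5 were higher and 7 lower in SLC, beside 61.7%. RUNX1 passed in MLC without it too.

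**Figure D4:**
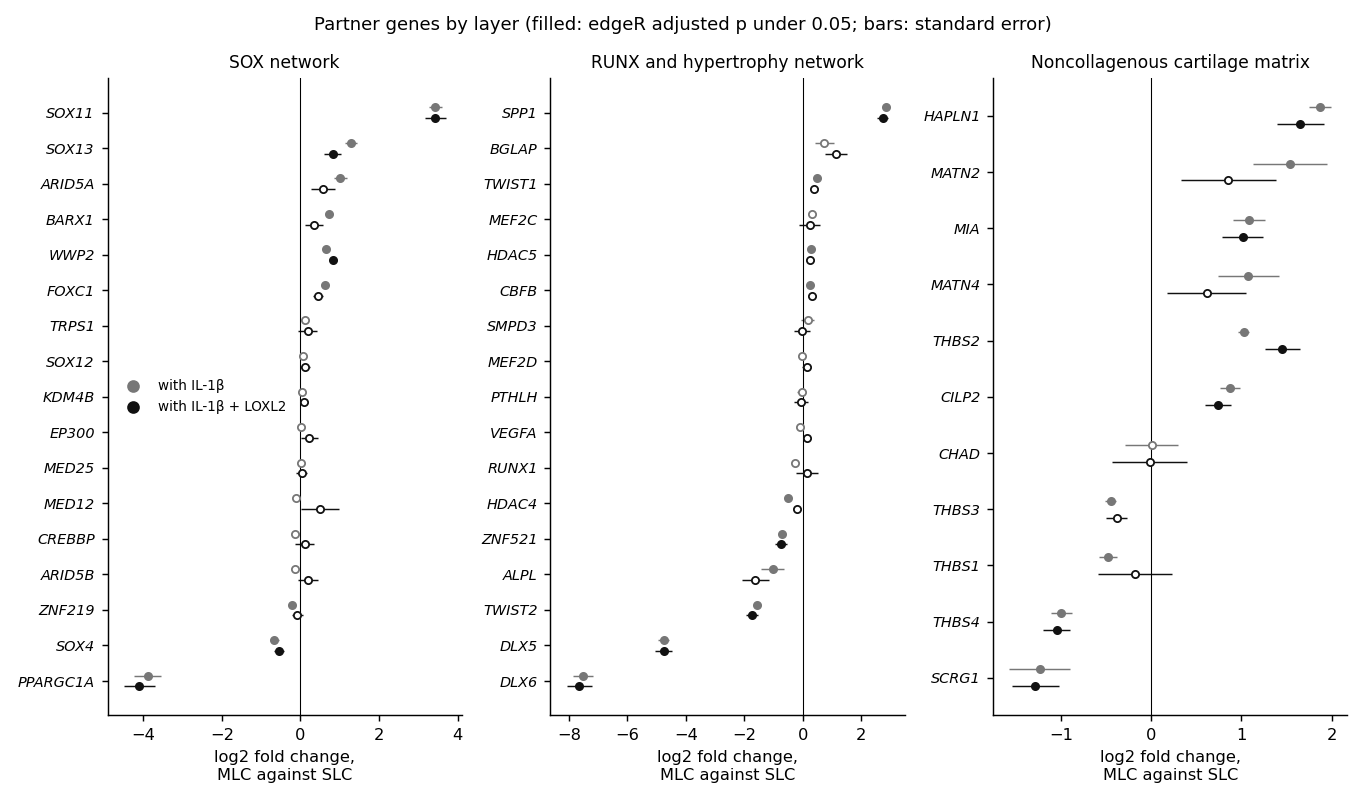
Log2 fold changes, MLC against SLC, of the partner genes tested with IL-1β and reported here, with standard errors, in 3 panels by list. Grey points are with IL-1β and black points with IL-1β + LOXL2, and filled points have an edgeR adjusted p under 0.05. SOX11, SPP1 and HAPLN1 stand at the high end of their lists, and PPARGC1A, DLX6, DLX5 and SCRG1 at the low end. With IL-1β, these low-end genes entered the tests only through their SLC libraries, and MATN2 only through its MLC libraries.

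Of 20 further noncollagenous cartilage matrix genes, 19 were found. With IL-1β, 6 were higher and 4 lower in MLC among 11 tested, and with IL-1β + LOXL2, 5 were higher and 2 lower among 13 tested, beside 46.9% and 16.1% of all genes. HAPLN1, the link protein that ties aggrecan to hyaluronan, was at 22.2 CPM in MLC and 6.04 CPM in SLC with IL-1β (log2 fold change 1.88, edgeR adjusted p = 2.00e-08). MATN2, a matrilin like MATN3 (log2 fold change 1.53, edgeR adjusted p = 0.00701), and MIA, a protein secreted by chondrocytes (log2 fold change 1.09, edgeR adjusted p = 1.64e-04), were higher too. SCRG1 (log2 fold change -1.24, edgeR adjusted p = 0.00804) and the COMP relatives THBS4 (log2 fold change -1.0, edgeR adjusted p = 6.94e-06) and THBS1 (log2 fold change -0.48, edgeR adjusted p = 0.00130) were lower. With IL-1β, MATN2 passed the low-count filter only through its MLC libraries and SCRG1 only through its SLC libraries. That fixes the direction of these 2 tests. A further COMP relative, THBS2, was higher in MLC with IL-1β, as COMP was, at 1437 CPM in MLC and 708 CPM in SLC (log2 fold change 1.02, edgeR adjusted p = 7.77e-09), and was named after its values were seen.

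With IL-1β + LOXL2, CILP (log2 fold change 2.51, edgeR adjusted p = 0.0260), HAPLN1 (1.66, edgeR adjusted p = 0.00464) and THBS2 (1.45, edgeR adjusted p = 0.00240) were higher in MLC, and SCRG1 (-1.29, edgeR adjusted p = 0.0154) and THBS4 (-1.05, edgeR adjusted p = 0.00327) were lower. CILP had 2, 1 and 5 counts in SLC and passed the low-count filter only through its MLC libraries, which fixes the direction of its test. With LOXL2, THBS1 fell in MLC, from 3364 to 2480 CPM (log2 fold change -0.44, edgeR adjusted p = 0.0371), where COMP rose, and the other 9 genes tested did not pass. None of 11 passed in SLC. The shares over all genes tested were 21.6% in MLC and 0% in SLC. Without replicate 1 of IL-1β + LOXL2, 1 was higher and 2 lower in MLC, and 3 were higher and 2 lower in SLC, where 48.1% and 61.7% of all genes passed. THBS1 passed in MLC without it too. Of the 15 partner genes named between layers with IL-1β + LOXL2, all passed without replicate 1 of SLC IL-1β + LOXL2. Without that of MLC IL-1β + LOXL2, 11 passed, and SOX13 (edgeR adjusted p = 0.109), SOX4 (0.0514), CILP (0.0665) and SCRG1 (0.0706) did not. No gene of the 3 lists passed in the interaction.

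The genes with a pattern most like that of an identity gene were sought for ACAN, SOX9 and SOX5, which had the widest ranges of group means among those tested in both layers, so that RUNX3 was not considered. Likeness was the root mean square difference of centred log2 CPM over the 12 libraries, which share layer, treatment and scaling, among 13416 genes. For ACAN the nearest were TGFA (0.21), NLGN4X (0.23) and SOX11 (0.25), where the median of all genes was 1.61. For SOX9 they were NEGR1 (0.13), P3H2 (0.15) and NDNF (0.15), with a median of 1.11. For SOX5 they were FRY (0.14), ANGPT1 (0.16) and SYNE2 (0.17), with a median of 0.86. These values are a description with no test.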

How the data were processed

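The authors deposited raw counts of poly(A)-selected RNA-seq reads on each goat gene (build ARS1.2), 1 table a layer. The submitters' processing notes name HISAT2 and featureCounts. Strand and multi-mapping settings are not given in the sources used here, so counts of overlapping or near-identical genes are uncertain. Coordinates, spans and older symbols come from RefSeq on ARS1.2. Sequences and transcript lengths were not used here.

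The edgeR 4.0.16 quasi-likelihood test (R 4.3.3, TMM scaling, filterByExpr at a minimum count of 10 and a minimum total of 15) was run on the 6 libraries of each comparison, or all 12 for the interaction. Benjamini-Hochberg adjustment covered all genes tested, at 0.05. Standard errors were derived from the log2 fold change and F, and 95% intervals use the quasi-likelihood degrees of freedom. Ratios of low counts have exact conditional intervals, with a floor of 3 counts for a group at 0. Libraries of equal replicate number deviated together (r of 0.61, 0.21 and 0.17) between layers with IL-1β + LOXL2. Replicate 3 of MLC was nonetheless most like replicate 2 of SLC. The block raised the genes called there from 2268 to 3887.

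Alternatives were DESeq2 1.42.0, the test of the study, and its size factors, other filters, the block, a fit on all 12 libraries, removal of each library's lowess trend (smoother span 0.3) on genomic span, and leaving out each library. Counts of the lists and calls of their named genes without replicate 1, and the block with the span trend removed, were chosen after seeing the data. The 9 genes, lists and markers were chosen with earlier results of these data known. Named besides the 9 are LOXL2, COL2A1, up to 3 genes a direction with the largest log2 fold change past the threshold in each list and comparison, and the 3 genes most like each of 3 identity genes. A listed gene that met this rule is counted but not reported here by name. RUNX1 in SLC, THBS2 with IL-1β and single markers were named after their values were seen. On simulated counts with 200 changed genes, 196 were recovered with 10 false calls for LOXL2 in SLC and 191 with 11 in MLC, 195 with 6 and 194 with 6 between layers with IL-1β and with IL-1β + LOXL2, and 135 with 5 for the interaction. The simulation gave every gene the same dispersion and changed only well-counted genes, all by the same fold. It had no outlying replicate and no span trend, so it checks the fits and does not measure power in these libraries.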

Additional observations from a re-analysis of the deposited data

How the results depend on the processing

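All 7 identity genes tested passed between layers with IL-1β in each fit that left out 1 library, and SOX6 alone lost its call in the fit on all 12 libraries (edgeR adjusted p = 0.0745), where 3715 genes passed. Between layers with IL-1β + LOXL2, genes called were 3887 with the replicate block, 4199 on all 12 libraries and 4487 with the block and span trend removed together. They ranged from 1140 to 4679 with 1 library left out, when 3 to 6 identity genes passed. For LOXL2 in SLC, DESeq2 called 4234 genes, 2 of them identity genes, and the fit on all 12 libraries called 5965, again with 2. With 1 library left out, 0 to 8849 genes and 0 to 6 identity genes passed, all of these calls coming without replicate 1 of SLC IL-1β + LOXL2. For LOXL2 in MLC, 0 genes and 0 identity genes passed on all 12 libraries, and 1 identity gene with the span trend removed. With 1 library left out, 0 to 6653 genes and 0 to 4 identity genes passed, the most without replicate 1 of MLC IL-1β + LOXL2. The interaction gave 0 to 1 genes and 0 identity genes with 1 library left out.

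With the span trend removed, the LOXL2 effect turned to 0.0039 for ACAN and 0.094 for RUNX2 in SLC and to 0.19 for RUNX2 in MLC, and the interaction to -0.039 for SOX5, -0.026 for ACAN and 0.091 for COMP. The interaction of COMP was also above 0 with DESeq2 size factors (0.0087), no filter (0.0059), DESeq2 (0.0087) and the block (8.4e-04). With 1 library left out, the log2 fold change ranged from -0.22 to 0.012 for RUNX2 with LOXL2 in MLC, and in the interaction from -0.095 to 0.28 for SOX5, -0.069 to 0.26 for SOX9, -0.14 to 0.33 for ACAN, -0.19 to 0.14 for COMP and -2.98 to 1.96 for RUNX3. The cause was not tested.

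The replicate numbers did not pair the libraries in the other comparisons (same-number r from -0.23 to 0.12). With the block, 0 genes passed for LOXL2 in SLC, 4053 in MLC, 5816 between layers with IL-1β and 0 in the interaction, and no identity gene changed its call there. Depth limits MATN3, whose MLC to SLC ratio with IL-1β may lie anywhere from 0.578 to 2.23 by counting error alone. Trends on exonic length and levels per transcript length were not run.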
